A study of Mus musculus with 4 samples.

Results

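MHC class II-high macrophages of the mouse fracture callus were followed in 4 scRNA-seq libraries, in which each captured mRNA molecule is counted once by a unique molecular identifier (UMI). The cells were chosen by their raw UMIs among cells with 4000 to 50000 UMIs, 2000 to 7000 genes and at most 8% mitochondrial UMIs (kept cells). Among the limits, a member had at least 10 UMIs of *H2-Ab1*, at least 2 of *C1qa* and at least 1 of *Csf1r*, at most 1 of *Folr2* and *Cbr2* together, 0 of *Flt3* and *Ccr7* and at most 1 of *Mki67*. This gave 1140 of 25479 kept cells, with 211 in control_4d and 501 in control_7d, and 111 in RA_4d and 317 in RA_7d. Because such genes chose the cells, their values describe the choice and are no finding. All mice were wild-type C57BL/6J, 3 months old, with a fracture whose callus was collected at 4 or 7 days post fracture (dpf). RA mice had received K/BxN serum, which transfers arthritis, and control mice had received vehicle. Each library came from 1 pool of callus (4 per pool by the labels, while the methods give another number) with 10000 cells loaded, so each condition had 1 library. No test between conditions was possible, and library and condition cannot be told apart. Where 4 values follow each other below, they are in the order control_4d, control_7d, RA_4d and RA_7d, and pairs of values of a time point are control and then RA.

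Macrophages engulf dead cells and matrix in a healing fracture and release factors that act on progenitor cells. Those with MHC class II on their surface can also show peptides to CD4+ T cells. The class II molecule is a pair of an alpha and a beta chain that is built with the invariant chain (*Cd74*), loaded with peptide in endosomes by the H2-DM exchange factor, and switched on at the gene level by the coactivator CIITA, which is recruited by the RFX factors and NF-Y to the X and Y boxes of class II promoters. Dendritic cells carry class II as well, which is why cells with *Flt3* or *Ccr7* UMIs were kept out.

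The class II-high macrophages held 3232947, 6156897, 1846676 and 4494136 UMIs. Their median depth was 13943, 10980, 15904 and 11829 UMIs per cell, and their median mitochondrial share was 2.00%, 2.19%, 1.86% and 2.05%. UMIs were summed over the cells of a library and scaled to counts per 1000000 UMIs (CPM), so a level is relative to all UMIs of the same cells. Intervals are given at 95% and hold the counting error alone, so that differences between mice lie outside them. Between 5 and 15 barcodes of kept cells were shared by any pair of libraries, and 0 were shared among the class II-high macrophages.

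The genes that define macrophages were present in all 4 libraries, including those that the choice of cells had not used. *Adgre1*, which encodes the macrophage surface protein F4/80, was at 258 CPM in control_4d and 342 in control_7d, and 215 in RA_4d and 394 in RA_7d. *C1qb*, a subunit of complement C1q next to *C1qa*, was at 2890.2 CPM in control_4d and 3239 in control_7d, and 2195 in RA_4d and 2692 in RA_7d. In mesenchymal cells without *Csf1r* and *Ptprc* UMIs, which should lack both genes, *Adgre1* lay between 0.888 and 1.45 CPM and *C1qb* between 4.64 and 7.41 CPM. Of 14 macrophage genes, among them *Cd68*, *Cd14*, *Fcgr1*, *Itgam* and *Ms4a7*, 0 were at 0 UMIs in any library. *Mertk*, a receptor for dead cells, was at 48.2 to 94.9 CPM.

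Of the markers given for these cells, *Cd72* had a UMI in most of them and *Retnla* in few. *Cd72*, an inhibitory C-type lectin best known from B cells, was at 157 CPM (143 to 171) in control_4d and 183 (172 to 194) in control_7d, and 162 (144 to 181) in RA_4d and 165 (154 to 178) in RA_7d. A *Cd72* UMI was found in 133 of 211, 308 of 501, 70 of 111 and 184 of 317 cells, which is 63.03%, 61.5%, 63.1% and 58.04%. With each cell thinned to 4000 UMIs the shares were 37.9%, 40.5%, 34.2% and 36.6%, against 0.342% to 0.867% of the mesenchymal cells, whose median depth was 23758 UMIs in control_7d and 30170.5 in control_4d. *Cd72* was not confined to these cells, since thinned class II-low macrophages of the same choice (0 to 9 *H2-Ab1* UMIs) had a UMI in 19.02%, 18.7%, 24.3% and 22.7%. The *Cd72* level was 235 CPM at 1 to 4 *H2-Ab1* UMIs in RA_4d and 178 CPM at 5 to 9 in RA_7d, above that of the class II-high macrophages of these libraries. *Retnla*, which encodes the secreted protein RELMα that interleukin-4 induces in macrophages, had a UMI in 3 of 211 cells of control_4d, 13 of 501 of control_7d, 0 of 111 of RA_4d and 7 of 317 of RA_7d. The count of 0 of 111 allows a share of cells with a *Retnla* UMI of up to 2.70% by 3 counts of 111. The upper limit of its Clopper-Pearson interval is 3.27%. The summed level of *Retnla* (61.2 CPM in control_4d and 208 in control_7d, and 0 in RA_4d and 302 in RA_7d) rested on few cells, since 1 cell held 193 of the 198 UMIs of control_4d and the highest cells of control_7d and RA_7d held 489 of 1282 and 454 of 1358. *Retnla* thus marked few of these cells, and the 23 that carried it are described apart at the end.

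Markers of other cell types that the choice could have let in ranged from near 0 to well above it. The 10 monocyte genes summed to 1614, 1403, 1226 and 1906 CPM with *Fn1* or *Ccr2* as the most abundant, and 9 resident-like macrophage genes to 747, 781, 558 and 861 CPM with *Mrc1* as the most abundant. The 5 plasmacytoid dendritic cell genes summed to 207, 278, 196 and 305 CPM, nearly all from *Tcf4*, a transcription factor that many other cells also use, while *Siglech* and *Klk1* were at 0 in control_4d, RA_4d and RA_7d. Of the 12 conventional dendritic cell genes, *Flt3* and *Ccr7* were at 0 by the choice of cells, *Xcr1* and *Clec9a* were also at 0 in RA_4d, and the summed level of the list was 101.5, 71.6, 66.1 and 95.2 CPM in control_4d, control_7d, RA_4d and RA_7d. *Cd209a*, a lectin of monocyte-derived dendritic cells, was at 17.3 CPM in control_4d and 3.57 in control_7d, and 12.996 in RA_4d and 3.34 in RA_7d and had a UMI in 7, 8, 5 and 4 cells, against 284, 162, 239.9 and 103 CPM in cells with *Flt3* and *H2-Ab1* but little *C1qa* (Flt3 dendritic cells). *Zbtb46*, a transcription factor of dendritic cells, was at 2.78 to 6.498 CPM, against 38.8 to 42.5 CPM in the Flt3 dendritic cells and 11.9 to 14.6 CPM in mesenchymal cells, so it was not above the level in the latter. The 6 muscle genes summed to at most 25.6 CPM. The 8 T and natural killer cell genes summed to at most 6.7 CPM and the 6 mast cell genes to at most 3.1 CPM. The 7 B cell genes summed to 90.9, 104.4, 87.2 and 114.4 CPM with *Ighm* as the most abundant. Endothelial genes summed to 55.8 to 105.9 CPM, and *Ly6g* and *Timd4* were at 0 UMIs. Mesenchymal, haemoglobin, osteoclast and neutrophil RNA also differed between the libraries and is given with results below.

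The class II genes were high in every library, and those that the choice did not use followed *H2-Ab1*. *H2-Aa* encodes the alpha chain that pairs with the *H2-Ab1* product, and *H2-Eb1* the beta chain of I-E, the other class II molecule of the mouse. C57BL/6 mice make no I-E alpha chain, so *H2-Eb1* RNA does not stand for a molecule on the surface. The genes lie near each other on chromosome 17, *H2-Aa* (ENSMUSG00000036594) at chr17:34282744-34287823 on the minus strand and *H2-Eb1* (ENSMUSG00000060586) at chr17:34305867-34316674 on the plus strand (GENCODE, GRCm38). The 120 bases before the RefSeq start of both genes (GRCm38.p6, the build of the files) are shown because both genes followed *H2-Ab1* across the cells. Capitals mark the matches to the X box, searched as AGNAAC followed directly by NGATG, and to the Y box, searched as TGATTGG. The stretches are chr17:34287824-34287943 on the minus strand and chr17:34305747-34305866 on the plus strand, written 5′ to 3′ in the direction of the gene.
H2-Aa: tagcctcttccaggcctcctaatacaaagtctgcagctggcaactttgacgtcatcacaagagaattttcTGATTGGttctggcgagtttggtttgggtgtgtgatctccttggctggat
H2-Eb1: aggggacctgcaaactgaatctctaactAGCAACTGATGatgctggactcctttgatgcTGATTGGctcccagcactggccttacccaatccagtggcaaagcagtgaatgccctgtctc
Both stretches have a Y box match, from 50 to 44 bases before the start of *H2-Aa* and from 61 to 55 bases before that of *H2-Eb1*. An X box match stands from 92 to 82 bases before the start of *H2-Eb1*, and the X box letters are not in the stretch of *H2-Aa*. Both strands were searched, and the 2 motifs do not overlap. Over the windows of 250 bases before to 50 after the start, the X box letters were in 98 of 32851 promoters (0.298%) and the Y box letters in 2568 (7.82%). Of the 13 genes of the class II presentation list with an entry, out of 17, the X box letters were in 3 (*H2-DMb1*, *H2-Eb1* and *H2-Eb2*) and the Y box letters in 8. A match is a description of letters and not a bound site.

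*H2-Aa* was at 4359 CPM (4288 to 4432) in control_4d and 4599 (4546 to 4653) in control_7d, and 3797 (3708 to 3886) in RA_4d and 4338 (4278 to 4399.6) in RA_7d. *H2-Eb1* was at 4269 CPM in control_4d and 4266 in control_7d, and 3705 in RA_4d and 4066 in RA_7d. *Cd74* was at 8708 CPM in control_4d and 8628 in control_7d, and 7661 in RA_4d and 8034 in RA_7d. Each of these 3 genes was lowest in RA_4d and next lowest in RA_7d. *H2-DMa*, the alpha chain of the peptide exchange factor, was at 371, 347, 254 and 333 CPM, and *H2-DMb1*, a beta chain of it, at 343, 331, 263 and 304 CPM. *Ciita*, the coactivator of class II genes, was at 46.1 CPM in control_4d and 35.4 in control_7d, and 35.2 in RA_4d and 36.5 in RA_7d, with a UMI in 74, 151, 39 and 105 cells. Its intervals overlapped between the libraries, with 38.98 to 54.1 CPM in control_4d and 27.2 to 44.9 CPM in RA_4d. *H2-Oa* and *H2-Ob*, which encode the inhibitor of peptide exchange known from B cells and dendritic cells, were at no more than 6.496 and 5.57 CPM, against 64.2 to 139 and 62.1 to 99.3 CPM in the Flt3 dendritic cells.

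Cells lay on both sides of the limit of 10 *H2-Ab1* UMIs without a gap. Among the cells that passed every limit but that on *H2-Ab1*, 980 had 0 UMIs, 424 had 1 to 4, 190 had 5 to 9, 105 had 10 to 14, 101 had 15 to 19, 375 had 20 to 49, 396 had 50 to 99 and 163 had 100 or more. The 190 cells just outside the limit had 781 CPM of *H2-Aa* in control_7d and 765 CPM in RA_7d, and the 105 cells just inside had 1229 and 1469.6 CPM. *H2-Aa*, *H2-Eb1* and *Cd74* were each higher in every class than in the class before, in all 4 libraries, without a step at the limit. From 0 to 100 or more UMIs of *H2-Ab1*, *Ccr2* went from 127 to 574, 33.6 to 364, 149 to 537 and 35.1 to 395 CPM in the 4 libraries, with the larger ratios at 7 dpf. *Stab1*, a scavenger receptor, went the other way, from 263 to 35.4, 237 to 48.2, 289 to 47.7 and 168 to 42.7 CPM. *Adgre1* was also lower at the upper end in each library, from 337 to 171, 399 to 287, 462 to 158 and 430.4 to 309 CPM. Deeper cells reach higher UMI classes more easily, and these values describe the order by *H2-Ab1*.

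**Figure D1:**
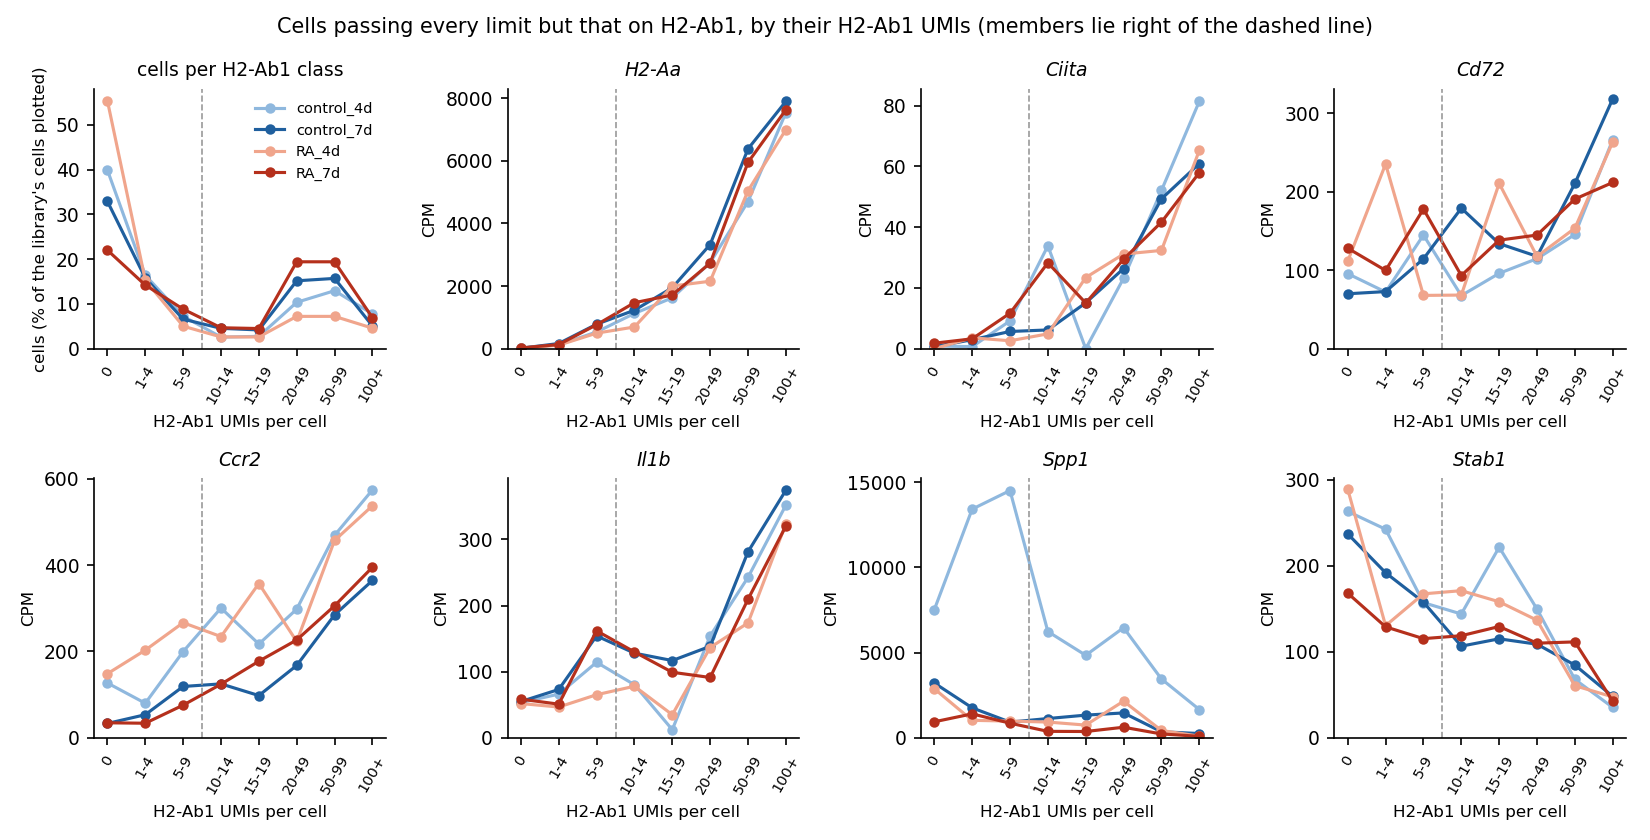
The panel at the upper left shows, per library, the percentage of cells in each class of H2-Ab1 UMIs among cells that passed every limit but that on H2-Ab1, and each other panel shows the CPM of 1 gene in these classes (y axis, from 0). Points are library sums joined by lines, the dashed line marks the limit of 10 UMIs, and H2-Aa, Ciita, Ccr2 and Il1b are highest at 100 or more UMIs while Stab1 and Spp1 are lowest there in each library.

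Against macrophages that passed the same limits except that *H2-Ab1* was at 0 to 9 UMIs (class II-low counterparts, 1594 cells), the class II-high macrophages had more RNA of the class II machinery, of the monocyte receptor *Ccr2* and of *Il1b*, and less of *Spp1*, *Slc40a1* and *Stab1*. Among 8400 genes with at least 50 UMIs over both groups in each library, 26 were at least 2-fold higher in all 4 libraries (0.310%) and 10 at least 2-fold lower in all 4 (0.119%). The count of lower genes depended on the processing, with 49 without called doublets, 27 by the mean over cells and 4 with TMM scaling. The ratio is the difference of log2(CPM + 1), its median over all genes was -0.10, and for a named gene the median over the 4 libraries is given. Within single libraries 1.58%, 0.992%, 0.895% and 0.941% of the genes were at least 2-fold higher and 3.39%, 3.66%, 3.82% and 2.57% at least 2-fold lower. Since *H2-Ab1* split these cells, the ratios describe the split and were not tested.

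Of the class II presentation genes other than *H2-Ab1*, which split the cells, 11 could be compared and 6 were at least 2-fold higher in all 4 libraries, namely *H2-Aa*, *H2-Eb1*, *Cd74*, *H2-DMa*, *H2-DMb1* and *Ciita*. The log2 ratio of *H2-Eb1* was 6.29, 5.57, 6.63 and 5.34 in control_4d, control_7d, RA_4d and RA_7d. That of *Ciita* was 4.06, 3.63, 4.15 and 2.85, with 1.82, 1.93, 1.03 and 4.199 CPM left in the counterparts. Genes that act on class II proteins but serve all endosomes differed less, with medians of 0.72 for *Ifi30*, a thiol reductase, 0.0036 for *Ctss*, the cathepsin that trims the invariant chain, and -0.42 for *Lgmn*, a lysosomal protease. Subunits of RFX were close in both groups. *Rfxap* was at 44.9, 46.8, 40.1 and 46.95 CPM in the class II-high macrophages and 46.1, 39.5, 38.01 and 34.2 CPM in the counterparts, and *Rfxank* was at 6.496, 8.12, 8.66 and 9.35 CPM against 6.93, 6.56, 8.06 and 6.16 CPM.

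*Ccr2*, the receptor by which monocytes follow CCL2 into tissue, was at 417 CPM (395 to 439.8) in control_4d and 222 (210.1 to 234) in control_7d, and 367 (340.0 to 396) in RA_4d and 266 (251 to 281) in RA_7d. The counterparts had 123, 49.4, 170.4 and 42.5 CPM, which was lower in each library. *Ccr2* was also widespread, with a UMI in 83.4%, 57.9%, 81.98% and 65.3% of the class II-high macrophages (69.2%, 41.9%, 63.1% and 48.9% when thinned) against at most 0.289% of thinned mesenchymal cells. *Ly6c2*, a surface protein of classical monocytes, was at 109 CPM in control_4d and 68.4 in control_7d, and 106 in RA_4d and 39.8 in RA_7d against 30.996, 15.1, 27.5 and 4.199 CPM. Its UMIs lay in few cells, 46 of 211, 53 of 501, 33 of 111 and 22 of 317. Of the 10 monocyte genes, 9 could be compared and *Ly6c2* and *Ccr2* were past 2-fold higher in all libraries, with a median over the list of -0.01.

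The lectin genes *Clec4b1* and *Mgl2* and the phospholipase-like gene *Plbd1* were among the highest ratios outside the class II genes. *Clec4b1* was at 79.5 CPM in control_4d and 62.5 in control_7d, and 66.1 in RA_4d and 109 in RA_7d against 6.199, 6.44, 12.6 and 18.5 CPM (median log2 ratio 2.80). *Mgl2*, a galactose-binding lectin of macrophages and dendritic cells, was at 60.01, 15.4, 26.5 and 31.2 CPM against 1.28, 2.06, 0.826 and 1.68 CPM. Its UMIs lay in few cells. Among class II-high macrophages without a *Retnla* UMI, 30 of 208, 30 of 488, 16 of 111 and 32 of 310 had an *Mgl2* UMI. *Plbd1* was at 224, 173, 259 and 178 CPM against 52.9, 49.2, 109 and 41.99 CPM and had a UMI in 171, 352, 95 and 227 cells. All 3 were also carried by the Flt3 dendritic cells, at 30.2, 35.2, 33.8 and 35.04 CPM of *Clec4b1*, 109, 81.8, 57.96 and 80.9 CPM of *Mgl2* and 665, 622, 666 and 889 CPM of *Plbd1*. *Batf3*, a transcription factor of dendritic cells, had a median log2 ratio of 1.38 with 17.9 to 31.2 CPM in the class II-high macrophages. Of the 12 conventional dendritic cell genes only 2 could be compared. Of these, 1 (*Batf3*) was past 2-fold higher in all libraries and 0 lower, with a median of 0.61.

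*Il1b*, the cytokine interleukin-1β, was at 216 CPM (200.2 to 233) in control_4d and 214 (202 to 226) in control_7d, and 171 (153 to 191) in RA_4d and 168 (156 to 180.0) in RA_7d against 64.2, 71.8, 51.9 and 75.9 CPM in the counterparts. It had a UMI in 122, 284, 61 and 169 cells, and thinned in 37.4%, 37.5%, 33.3% and 37.9%, against at most 0.464% of thinned mesenchymal cells. Of 14 cytokine genes 8 could be compared, and 1 (*Il1b*) was past 2-fold in all libraries. Without cells over 50 mesenchymal UMIs, defined below, its lowest log2 ratio was 0.94. *Bcl2a1d*, a survival gene of the BCL2 family, was at 104, 102, 41.7 and 112 CPM against 38.3, 25.999, 15.1 and 42.5 CPM and has near-identical copies whose reads could have been split. *Itgax*, which encodes CD11c, was at 107, 63.2, 26.5 and 68.98 CPM against 49.8, 29.5, 11.4 and 34.7 CPM, with a lowest ratio of 0.97 in RA_7d. The ligands that give T cells a costimulus were less different, since 0 of 9 genes compared were past 2-fold in all libraries (median 0.52). *Cd86*, the ligand of CD28, was at 188, 177, 146 and 207 CPM against 110.5, 112, 123 and 109 CPM, and *Cd40* at 27.2, 28.4, 24.4 and 24.3 CPM against 19.3, 12.4, 17.4 and 13.2 CPM.

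Lower in the class II-high macrophages were *Spp1*, *Stab1*, *Igf1*, *Slc40a1* and *Rnf128*. *Spp1*, the matrix protein and cytokine osteopontin, was at 4146 CPM (4076 to 4217) in control_4d and 897 (874 to 921) in control_7d, and 989 (944 to 1036) in RA_4d and 383 (365 to 402) in RA_7d. In the counterparts it was at 9967, 2521, 2311 and 1093 CPM, which was higher in each library (log2 ratios -1.27, -1.49, -1.22 and -1.51). *Stab1* was at 98.98, 93.2, 103 and 103 CPM against 245, 214, 243 and 144 CPM, and *Igf1*, a growth factor for bone and muscle cells, at 46.1, 178, 48.7 and 237 CPM against 141, 316, 136 and 409 CPM. *Slc40a1*, the iron exporter ferroportin, was at 7.11, 51.8, 14.1 and 29.4 CPM against 59.99, 163, 64.04 and 51.2 CPM, and *Rnf128*, a ubiquitin ligase, at 16.7, 29.2, 21.7 and 35.2 CPM against 68.4, 83.1, 49.8 and 80.6 CPM. In RA_7d *Slc40a1* and *Stab1* were lower by less than 2-fold. Of 10 haem and iron genes compared, 0 were past 2-fold in all libraries, with a median of -0.23. The lysosomal cathepsins *Ctsb*, *Ctsd* and *Ctsl* had median log2 ratios of -0.69, -0.98 and -0.91. Over the 16 lysosomal genes the median was -0.31 and over 15 scavenger receptor genes compared -0.36, and 0 genes of the former and 1 of the latter (*Mgl2*, higher) were past 2-fold in all libraries. Of 16 growth and matrix factor genes compared, 1 (*Spp1*) was past 2-fold lower and 0 higher, with a median of -0.33.

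Several genes with the lowest ratios are made by mesenchymal cells, and their ratios moved with the cells that carried mesenchymal RNA. Class II-high macrophages with more than 50 UMIs of 8 mesenchymal genes numbered 0 of 211, 23 of 501, 1 of 111 and 37 of 317, and among the counterparts 6 of 368, 76 of 620, 7 of 346 and 43 of 260. Without such cells the median log2 ratio of *Abi3bp* was -0.10 (from -2.41), of *Thbs4* -0.07 (from -2.07) and of *Dcn* -0.21 (from -1.33), while that of *Spp1* was -1.43 and of *Slc40a1* -1.85. *Dcn* is one of the 8 genes by which the cells were left out. The counts then were 24 genes higher (0.303%) and 14 lower (0.177%) of 7930. The 8 neutrophil genes summed to 51.7, 74.6, 243.1 and 125.1 CPM in the class II-high macrophages and to 629.0, 262.2, 1869.5 and 66.1 CPM in the counterparts, and their part in the ratios was not tested.

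**Figure D2:**
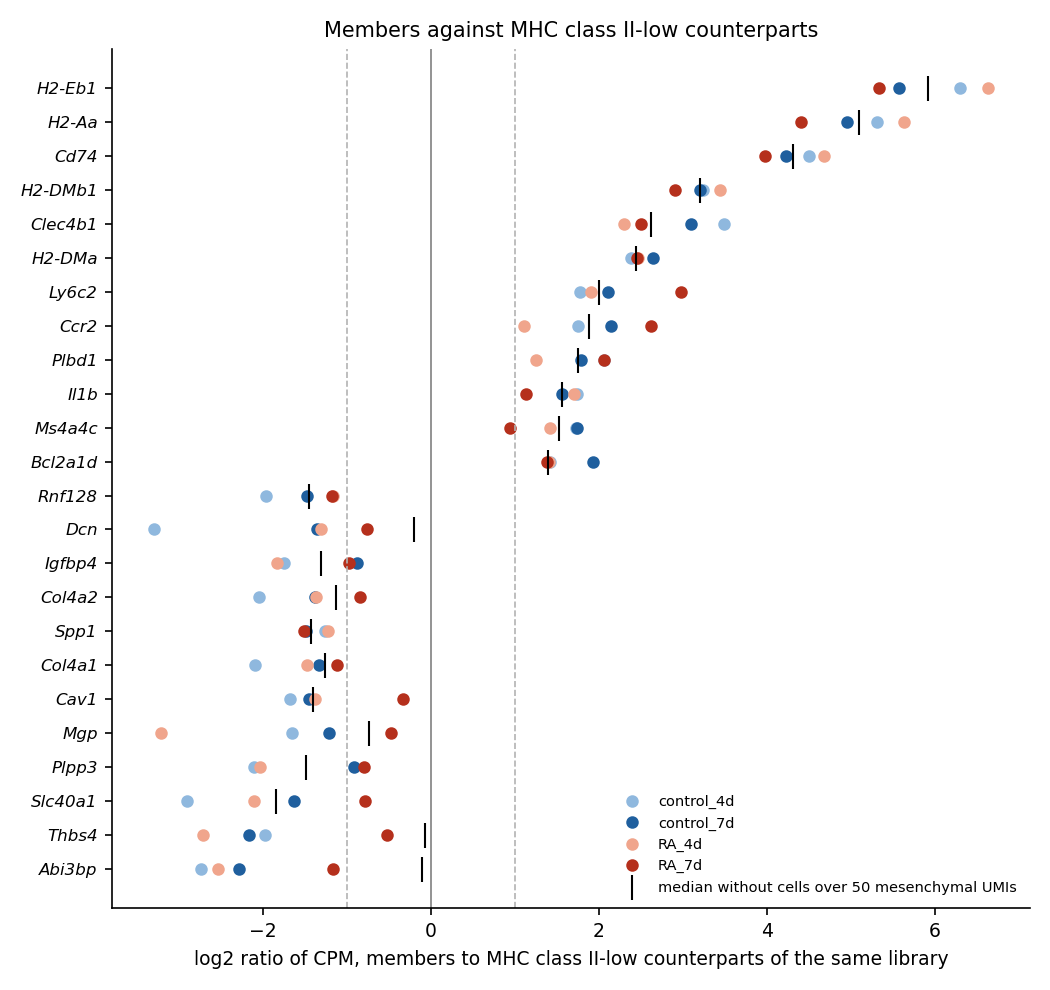
Log2 ratios of CPM of class II-high macrophages to their class II-low counterparts (x axis) for the 12 genes with the largest and the 12 with the smallest median among genes of at least 50 CPM in the higher group, with 1 point per library and without the genes of the choice. Black ticks give the median without cells over 50 mesenchymal UMIs and dashed lines mark 2-fold, and the ticks of Abi3bp, Thbs4 and Dcn lie near 0 while those of the class II genes lie among their points.

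Set beside other myeloid cells of the callus, the class II-high macrophages had *C1qb* near the level of Folr2 Cbr2 macrophages, less *Mrc1* than these, and *H2-Aa* between these and dendritic cells. *C1qa*, the partner of *C1qb*, had a limit in the choice of each of these groups. *H2-Ab1*, the partner of *H2-Aa*, had to be at 10 UMIs or more in the class II-high macrophages and the dendritic cells. It had no limit in the Folr2 Cbr2 macrophages, so the *H2-Aa* levels were not set on equal limits. *C1qb* was at 3525, 3178, 2709.8 and 3389 CPM in macrophages with at least 4 UMIs of *Folr2* and *Cbr2* (Folr2 Cbr2 macrophages) and at 9.803, 14.5, 7.06 and 22.5 CPM in Flt3 dendritic cells. *H2-Aa* was at 649, 840.0, 313 and 1182 CPM and 7231, 5524, 6651 and 6222 CPM in the same groups, and of these groups the Flt3 dendritic cells alone were above the class II-high macrophages in each library. *Mrc1*, the mannose receptor, was at 564, 555, 403 and 627 CPM in the class II-high macrophages and 1752, 1268, 1490.2 and 1687 CPM in the Folr2 Cbr2 macrophages. *Cx3cr1*, the fractalkine receptor, was at 180.0, 171, 116 and 149 CPM, against 161, 106, 80.2 and 87.9 CPM in the class II-low counterparts, 70.6, 64.6, 39.98 and 51.9 CPM in the Folr2 Cbr2 macrophages and 83.003, 63.1, 48.2 and 47.7 CPM in all other cells with a *Csf1r* UMI. These groups were also set by UMI limits, so the values describe them.

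The class II-high macrophages were a smaller part of the RA libraries than of the control libraries, and a larger part at 7 than at 4 dpf. They were 3.86% (3.36 to 4.402) of the kept cells in control_4d and 6.53% (5.98 to 7.103) in control_7d, and 2.701% (2.23 to 3.24) in RA_4d and 3.86% (3.45 to 4.29) in RA_7d, with Clopper-Pearson intervals. The share in RA was 0.7001 times that in control at 4 dpf (0.551 to 0.885) and 0.591 times at 7 dpf (0.512 to 0.681). From 4 to 7 dpf the share was 1.69 times as high in control (1.44 to 2.00) and 1.43 times in RA (1.15 to 1.79). With cells thinned to 10000 UMIs the ratio in RA was 1.19 (0.929 to 1.53), an interval that includes 1. Each pool was loaded at the same cell number, which leaves the number of cells in a callus unmeasured.

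At 7 dpf the difference between RA and control depended on what the cells were counted against. All cells with a *Csf1r* UMI were 59.8%, 40.5%, 53.1% and 25.4% of the kept cells, so RA_7d had the fewest. Among them the class II-high macrophages were 6.45%, 16.1%, 5.08% and 15.2%, and RA_7d had 0.941 times the share of control_7d. Among cells that passed every limit but that on *H2-Ab1* they were 36.4%, 44.7%, 24.3% and 54.9%, and RA_7d had 1.23 times the share of control_7d (1.07 to 1.42). At 4 dpf RA was below control by each of the 3 counts.

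**Figure D3:**
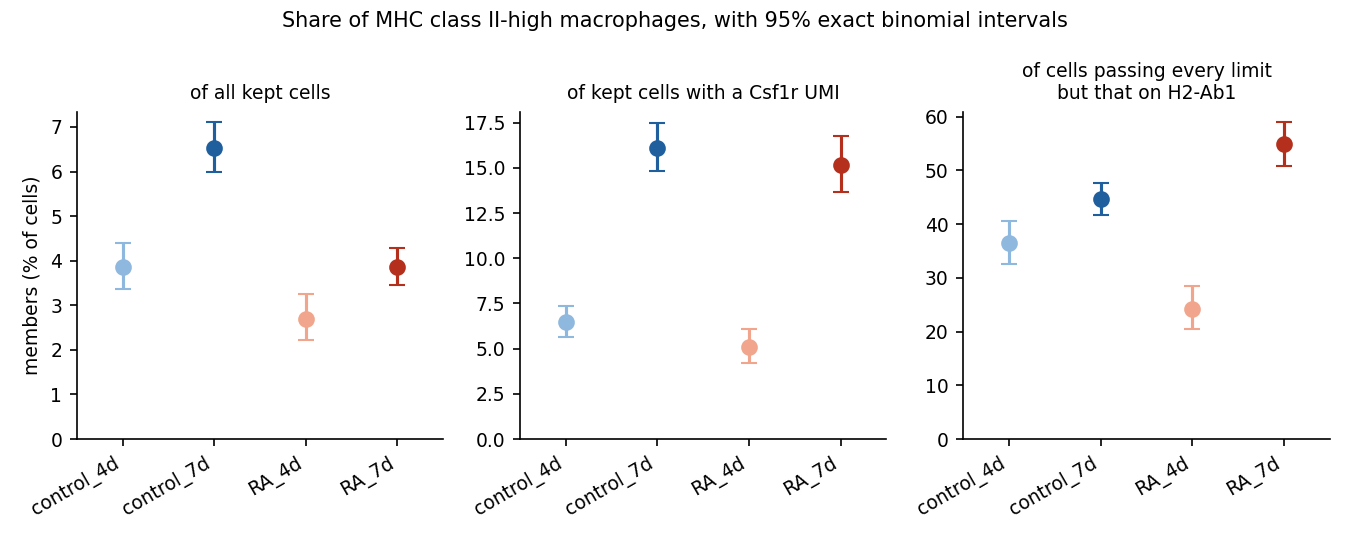
Share of class II-high macrophages in each library (y axis, percent, from 0) among all kept cells (left), kept cells with a Csf1r UMI (middle) and cells that passed every limit but that on H2-Ab1 (right). Points are shares and bars are 95% exact binomial intervals, and RA_7d lies below control_7d on the left, close to it in the middle and above it on the right.

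Cells that failed 1 limit alone show which limits mattered. The limit on *C1qa* alone kept out 140, 156, 95 and 105 cells. That on *Folr2* and *Cbr2* kept out 216, 196, 69 and 221 cells. The limits on *Flt3* and *Ccr7* kept out 16, 27, 18 and 8, those on *Mki67* 15, 16, 6 and 2 and that on *Csf1r* 4, 7, 5 and 3. Apart from *H2-Ab1*, the limits on *Folr2*, *Cbr2* and *C1qa* thus kept out the most cells.

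Mesenchymal RNA in the class II-high macrophages differed between the libraries and lay in few cells. The 8 mesenchymal genes summed to 303.1, 3352, 610.8 and 11534 CPM, with *Col3a1* or *Col1a1* as the most abundant and none at 0. The 23 cells over 50 such UMIs in control_7d held 81.4% of these UMIs, the 1 cell in RA_4d 77.2% and the 37 cells in RA_7d 94.5%, while the median cell had 4, 7, 2 and 10. Scrublet called 16 of the 23 and 32 of the 37 doublets, and over all class II-high macrophages it called 3, 22, 1 and 39 cells (1.42%, 4.39%, 0.901% and 12.3%). Counts between libraries are therefore also given without the cells over 50 mesenchymal UMIs, and how far the remaining cells carried such RNA was not tested.

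At 4 dpf the class II-high macrophages of RA had less *Spp1*, *Itgax*, *Fn1* and chemokine RNA than those of control, more *Chil3*, and class II genes that differed by less than 2-fold. Of 7696 genes with 50 UMIs or more in the libraries together, 42 were at least 2-fold higher (0.546%) and 115 at least 2-fold lower in RA (1.49%), and without the 1 cell over 50 mesenchymal UMIs 28 (0.366%) and 120 (1.57%) of 7656. Of the class II presentation genes other than *H2-Ab1*, which chose the cells, 0 of 11 compared were past 2-fold, and the list with *H2-Ab1* had a median log2 ratio of -0.25, against 0.03 over all genes. *H2-Aa* had a ratio of RA to control of 0.871, interval 0.846 to 0.896 and *H2-DMa* of 0.685, interval 0.615 to 0.763. Because *H2-Ab1* chose the cells, their class II genes could differ less than in unselected cells. At both times 0 of 13 class I genes (median -0.17 at 4 dpf and -0.18 at 7 dpf) and 0 of 16 oxidative phosphorylation genes were past 2-fold.

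*Itgax* was lower across many cells. It was at 107 CPM in control_4d (95.7 to 119) and 26.5 in RA_4d (19.6 to 35.1), a ratio of 0.249, interval 0.1804 to 0.336, with a UMI in 92 of 211 and 23 of 111 cells. Thinned, these shares were 24.2% and 7.21%, against 0.232% and 0% of mesenchymal cells. The class II-low counterparts had 49.8 and 11.4 CPM. *Spp1* was at 4146 and 989 CPM, a ratio of 0.239, interval 0.227 to 0.251, with a UMI in 189 of 211 and 54 of 111 cells. Its sums rested on few cells, since the highest cell held 2033 of 13405 UMIs in control_4d and 710 of 1827 in RA_4d, and the median cell had 4 and 0. *Fn1*, fibronectin, was at 594 and 166 CPM (ratio 0.279, interval 0.247 to 0.315), with a UMI in 148 of 211 and 57 of 111 cells, while mesenchymal cells had 2958 and 2119.6 CPM.

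Of 15 chemokine genes compared, 6 were at least 2-fold lower and 0 higher in RA (*Ccl4*, *Ccl5*, *Ccl8*, *Ccl12*, *Cxcl3* and *Cxcl10*), with a median of -0.80, and 7 lower without the cell over 50 mesenchymal UMIs. *Ccl4*, a chemokine of the CC family, was at 226 and 94.2 CPM (ratio 0.416, interval 0.351 to 0.492) and had a UMI in 71 of 211 and 40 of 111 cells. *Ccl12*, a ligand of CCR2, was at 152 and 67.7 CPM (ratio 0.446, interval 0.363 to 0.543). For *Ccl8* and *Ccl5*, 1 cell each held most of the UMIs, with 289 of 520 and 331 of 416 UMIs in control_4d. *Cxcl10*, a chemokine that interferons induce, was at 152 and 40.1 CPM in 30 and 15 cells. The type I interferon list had 4 of 12 genes compared at least 2-fold lower (*Ifit1*, *Ifit3*, *Rsad2* and *Xaf1*) and 0 higher, with a median of -0.39 (3 and -0.37 without that cell), and the interferon-γ list 2 of 11 lower (*Cxcl10* and *Gbp2*) and 1 higher (*Socs1*, a feedback inhibitor), with a median of -0.45. *Rsad2*, an antiviral enzyme, was at 102 and 42.2 CPM, with 80 of its 330 UMIs of control_4d in 1 cell.

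Osteoclast genes were lower in RA at 4 dpf for 4 of 8 compared (*Acp5*, *Ctsk*, *Mmp9* and *Dcstamp*), with a median of -0.87. In control_4d the highest cell held 537 of the 540 *Mmp9* UMIs, 585 of the 635 *Ctsk* UMIs and 343 of the 1121 *Acp5* UMIs, so 1 cell set the values of *Mmp9* and *Ctsk*, and the log2 ratio of *Acp5*, -1.01, lay just past the limit of 2-fold. *Mmp9*, *Ctsk* and *Acp5* encode the gelatinase, cathepsin K and acid phosphatase by which osteoclasts degrade bone. Among broadly carried genes, *Apoe*, a lipid carrier, was at 13689 and 7641 CPM (ratio 0.558, interval 0.548 to 0.569) and *Lyz2*, lysozyme, at 10414 and 6815 CPM (ratio 0.654, interval 0.641 to 0.668). Both were below the 2-fold limit and were carried by nearly all cells, with a UMI in 96.7% and 95.5% for *Apoe*.

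*Chil3*, a secreted lectin of monocytes and of macrophages exposed to interleukin-4, was higher in RA at 4 dpf. It was at 14.8 CPM in control_4d (10.9 to 19.7) and 116 in RA_4d (101 to 133), a ratio of 7.84, interval 5.71 to 10.96, with a UMI in 19 of 211 and 36 of 111 cells. Mesenchymal cells had 0.196 and 1.83 CPM, and the class II-low counterparts 27.9 and 142 CPM. The interleukin-4 response genes were mixed. Of 10 compared, 3 had a log2 ratio above 0, with *Chil3* alone past 2-fold higher. *Retnla*, *Mgl2* and *Ear2* were past 2-fold lower, and the median was -0.22. In control_4d 3 cells held all *Retnla* UMIs, and without these cells *Mgl2* was at 46.97 CPM, which is within 2-fold of the 26.5 CPM of RA_4d. *Ear2* without these cells was at 15.8 CPM, still more than 2-fold above the 3.25 CPM of RA_4d. *Sdc1*, a heparan sulfate proteoglycan, was at 35.9 and 79.1 CPM (ratio 2.203, interval 1.71 to 2.84), and the replication genes *Mcm2* and *Mcm5* had ratios of 2.57, interval 1.63 to 4.11 and 2.87, interval 1.97 to 4.21.

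*S100a8* and *S100a9*, the calprotectin genes of neutrophils, had the largest ratios at 4 dpf, but they were also present in cells that should lack them. *S100a9* was at 4.02 and 75.8 CPM and *S100a8* at 6.496 and 103 CPM. In mesenchymal cells *S100a8* was at 2.28 and 44.3 CPM, and 58.4% of them had a UMI in RA_4d, at a median depth of 30086.5 UMIs, against 52.3% of the class II-high macrophages (11.99% and 18.02% when thinned). In RA_4d 57 of the 191 *S100a8* UMIs of these macrophages lay in 1 cell. The haemoglobin gene *Hbb-bs* was at 96.8 and 8.12 CPM, against 355 and 3.26 CPM in mesenchymal cells, and *Tppp3* at 68.4 and 9.21 CPM, against 131 and 24.3 CPM. The part of free RNA in the levels of these 4 genes was not tested.

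At 7 dpf the class II-high macrophages of RA had less *Spp1*, *Fabp5*, *Gpnmb*, *Ms4a4c* and *Irf7* than those of control and more *Ccl8*, *Ccl7* and *Ear2*, while 0 of 11 class II genes other than *H2-Ab1* were past 2-fold. Of 10035 genes compared, 451 were at least 2-fold higher (4.49%) and 58 at least 2-fold lower in RA (0.578%). Without the cells over 50 mesenchymal UMIs, 97 of 9092 were higher (1.07%) and 53 lower (0.583%). The class II presentation list with *H2-Ab1* had a median of -0.08, or 0.06 without those cells, against 0.04 over all genes. *H2-Aa* had a ratio of 0.943, interval 0.926 to 0.961 and *Ciita* of 1.03, interval 0.836 to 1.27.

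The largest ratios at 7 dpf were those of matrix genes and went with the cells rich in mesenchymal UMIs. *Mmp3*, a matrix metalloproteinase of fibroblasts, was at 1.46 and 65.4 CPM, and at 0.358 and 2.597 CPM without those cells. *Eln*, elastin, was at 13.3 and 238 CPM, and at 8.23 and 14.7 CPM without them. Of the 8 mesenchymal genes 7 were past 2-fold with all cells, and since these genes set which cells were left out, their values without them are not read. *Col2a1*, cartilage collagen, was lower in RA at a log2 ratio of -2.86, with 1321 of 1774 UMIs of control_7d in 1 cell, and -0.20 without these cells.

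At 7 dpf 4 chemokine genes were past 2-fold higher in RA. Of 17 compared, 12 had a log2 ratio above 0, 4 were at least 2-fold higher (*Ccl7*, *Ccl8*, *Ccl24* and *Cxcl1*) and 1 lower (*Cxcl9*), with a median of 0.33 and, without the cells rich in mesenchymal UMIs, 0.55. The immediate early genes, which cell handling can induce, moved the same way as the chemokines at both times. Of 13 compared, 13 had a log2 ratio above 0 at 7 dpf (median 0.33, 1 past 2-fold, *Egr1*) and 2 at 4 dpf (median -0.31, 0 past 2-fold), and their part in the chemokine values was not tested. *Ccl8*, a ligand of CCR8 and CCR2, was at 313 CPM in control_7d (299 to 327) and 708 in RA_7d (683 to 733), a ratio of 2.26, interval 2.14 to 2.39. It had a UMI in 115 of 501 and 117 of 317 cells, and the highest cells held 246 of 1927 and 267 of 3180 UMIs. Mesenchymal cells had 26.5 and 138 CPM of *Ccl8*. *Ccl7* was at 44.5 and 122 CPM (ratio 2.73, interval 2.36 to 3.17) in 78 and 101 cells, and mesenchymal cells had more, 78.6 and 150.0 CPM. *Cxcl2*, a neutrophil attractant, was at 411 and 719.8 CPM and *Tnf* at 23.6 and 41.2 CPM, which was below the 2-fold limit for both (log2 ratios 0.81 and 0.78).

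*Ear2*, a ribonuclease of eosinophils and some macrophages, was at 10.4 and 46.1 CPM (ratio 4.43, interval 3.33 to 5.96), with a UMI in 20 of 501 and 31 of 317 cells and 0.0145 and 0.0219 CPM in mesenchymal cells. Its UMIs lay in few cells, with 37 in 4 cells with *Retnla* in control_7d and 89 in 6 such cells in RA_7d. The cells without *Retnla* had 4.57 and 26.9 CPM of *Ear2*. Of 12 interleukin-4 response genes compared, *Ear2*, *Ccl24* and *Irf4* were at least 2-fold higher and 0 lower, with a median of 0.54. Without the cells rich in mesenchymal UMIs 5 were higher and 0 lower, with a median of 0.67. *Ccl24* had 50 and 92 UMIs, with 35 of the latter in 1 cell, and *Irf4*, a transcription factor, 21 and 41 UMIs in 17 and 27 cells. *Mmp12*, macrophage elastase, was at 109 and 274 CPM (ratio 2.51, interval 2.28 to 2.76), with 400 of 1230 UMIs of RA_7d in 1 cell. *Egr1*, an immediate early gene, was at 44.02 and 119 CPM, and mesenchymal cells had 158 and 263 CPM. *Pparg*, a regulator of lipid genes, was at 157 and 228 CPM, and *Abca1*, a cholesterol exporter, at 374 and 549.6 CPM, both higher by less than 2-fold (ratios 1.45, interval 1.33 to 1.59 and 1.47, interval 1.39 to 1.56).

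Several of the genes lower in RA at 7 dpf had UMIs in many cells, from 24.6% (*Atp6v0d2*) to 88.4% (*Hmox1*) of control_7d for the 6 described next. *Ms4a4c*, a membrane protein that interferons induce, was at 121 CPM in control_7d (113 to 130.2) and 43.4 in RA_7d (37.5 to 49.9), with a UMI in 202 of 501 and 87 of 317 cells and at most 0.348 CPM in mesenchymal cells of these libraries. *Fabp5*, a fatty acid carrier, was at 1291 and 562 CPM (ratio 0.435, interval 0.416 to 0.455), while mesenchymal cells had 233 and 60.7 CPM. *Gpnmb*, a glycoprotein of lysosome-rich macrophages, was at 317 and 155 CPM (ratio 0.489, interval 0.448 to 0.533), and *Spp1* at 897 and 383 CPM (ratio 0.427, interval 0.404 to 0.451). The latter 2 are often named together as genes of lipid-laden macrophages. The lipid handling list did not move as a whole. Of its 11 genes compared, 7 had a log2 ratio above 0, *Fabp5* alone was past 2-fold lower and 0 were past 2-fold higher. The median was 0.14, or 0.35 without the cells rich in mesenchymal UMIs, where 1 gene was past 2-fold higher and 1 lower. *Atp6v0d2*, a proton pump subunit, was at 83.8 and 34.7 CPM, and *Hmox1*, which degrades haem, at 802 and 436 CPM. Without the cells rich in mesenchymal UMIs these 6 genes had log2 ratios from -1.36 (*Ms4a4c*) to -0.92 (*Hmox1*). Of 8 osteoclast genes compared at 7 dpf, 4 had a log2 ratio above 0, 2 were past 2-fold lower (*Mmp9* and *Atp6v0d2*) and 0 higher. Their median was -0.04. Of 10 haem and iron genes compared, 0 were past 2-fold, with a median of -0.31.

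The type I interferon list had 0 genes past 2-fold between RA and control at 7 dpf. *Irf7*, the regulator of type I interferon genes, was at 89.8 and 44.9 CPM (ratio 0.5004, interval 0.424 to 0.589), and *Ifi27l2a* at 924 and 489 CPM (ratio 0.5297, interval 0.504 to 0.557). Over 12 type I interferon genes compared, 0 were past 2-fold and the median was -0.26, or -0.40 without the cells rich in mesenchymal UMIs, where 1 was past 2-fold lower. Of 13 interferon-γ response genes compared, 1 (*Cxcl9*) was past 2-fold lower and 0 higher, with a median of -0.07.

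**Figure D4:**
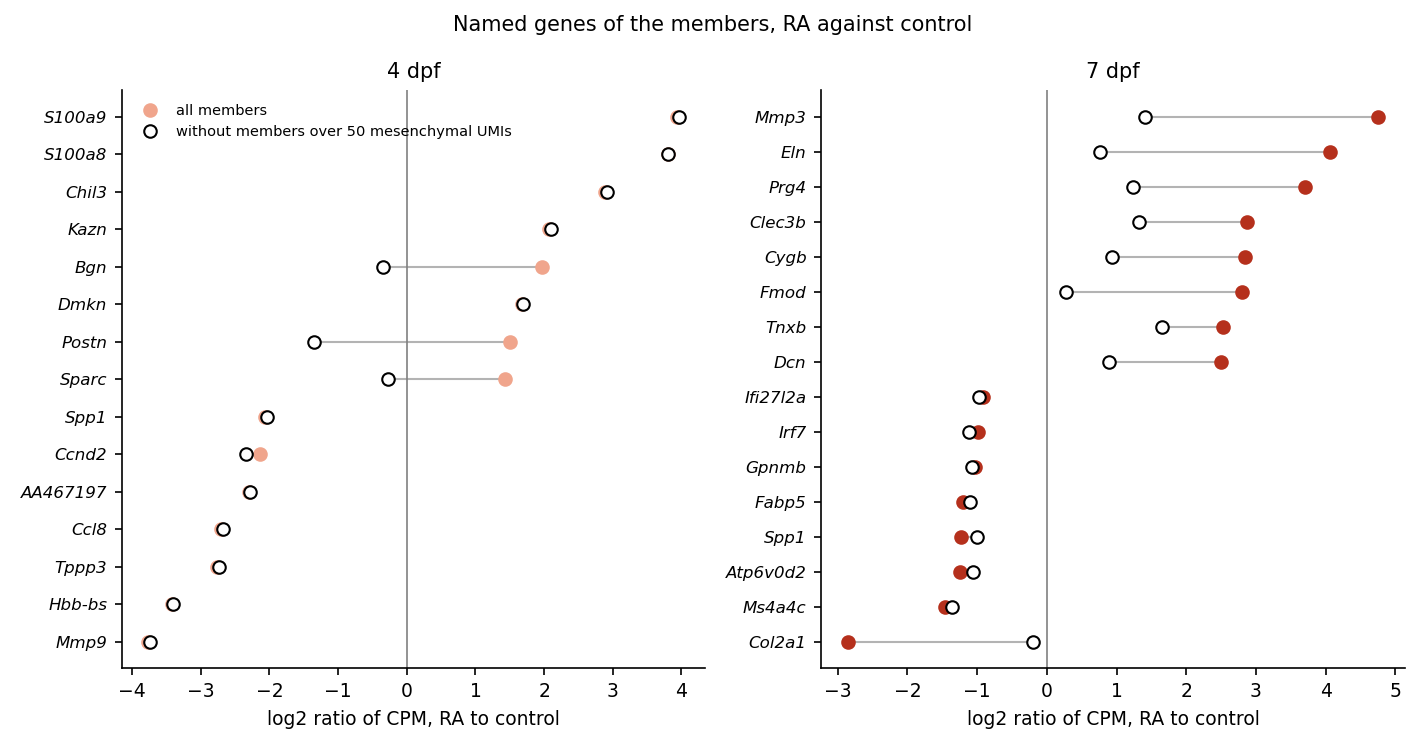
Log2 ratio of CPM of RA to control (x axis) in class II-high macrophages at 4 dpf (left) and 7 dpf (right) for the 8 named genes in each direction, leaving out Retnla at 4 dpf, which had 0 UMIs in RA. Filled points are all members and open points are members with at most 50 mesenchymal UMIs, and the matrix genes at 7 dpf and Bgn, Postn and Sparc at 4 dpf move toward or past 0 while the genes lower at 7 dpf other than Col2a1 stay near their place.

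*Spp1*, *Atp6v0d2*, *Trem2* and *Lyz2* were lower in RA at both 4 and 7 dpf. The log2 ratios were -2.07 and -1.23 for *Spp1*, -0.73 and -1.25 for *Atp6v0d2*, -0.54 and -0.59 for *Trem2*, a lipid receptor of macrophages, and -0.61 and -0.48 for *Lyz2*. *Trem2* had 424 CPM in control_4d and 466 in control_7d, and 291 in RA_4d and 310.0 in RA_7d and a UMI in 179, 439, 89 and 254 cells. *Sdc1* was higher at both times, with log2 ratios of 1.12 and 0.78, and so was *S100a8*, with 3.80 and 1.90. Of 3 neutrophil genes compared at 7 dpf, 1 (*S100a8*) was past 2-fold higher, with a median of 0.85. Without the cells rich in mesenchymal UMIs 2 were, with a median of 1.10. The part of free RNA in *S100a8* at 7 dpf was not tested. The 2 time points had libraries of their own, so the ratios at 4 and 7 dpf share no sample.

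From 4 to 7 dpf the class II-high macrophages had less RNA of type I interferon genes and more *Igf1* and *Apoe* in both control and RA. In control, 483 of 9443 genes compared were at least 2-fold higher at 7 dpf (5.11%) and 92 lower (0.974%), and 119 (1.33%) and 94 (1.05%) of 8970 without the cells rich in mesenchymal UMIs. In RA, 909 of 8871 were higher (10.2%) and 109 lower (1.23%), and 307 (3.91%) and 100 (1.27%) of 7857 without those cells. Of the type I interferon genes 7 of 13 compared were at least 2-fold lower in control (median -1.14) and 7 of 12 in RA (median -1.08), with 0 higher, and the same counts stood without those cells. The interferon-γ list was mixed, with 2 of 13 compared past 2-fold lower and 1 higher in both (*Cxcl10* and *Irgm1* lower and *Cxcl9* higher in control, *Irgm1* and *Socs1* lower and *Iigp1* higher in RA) and medians of -0.50 and -0.11. Without the cells rich in mesenchymal UMIs 1 was lower and 1 higher in control, and 2 of 11 lower and 0 higher in RA. *Irf7* went from 199 to 89.8 CPM in control and from 175 to 44.9 CPM in RA, and *Ms4a4c* from 247 to 121 and from 269 to 43.4 CPM. *Ccr2* was lower at 7 dpf, at 417 and 222 CPM in control and 367 and 266 CPM in RA (ratios 0.532, interval 0.493 to 0.574 and 0.724, interval 0.658 to 0.796).

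*Igf1* had ratios of 7 to 4 dpf of 3.86, interval 3.25 to 4.61 in control and 4.87, interval 3.93 to 6.11 in RA, and its log2 ratios were 1.58 and 1.69 without the cells rich in mesenchymal UMIs. It had a UMI in 46, 253, 30 and 171 cells, and mesenchymal cells had more, 505, 592, 439 and 781 CPM. *Apoe* had ratios of 1.63, interval 1.61 to 1.64 and 2.09, interval 2.05 to 2.13, and mesenchymal cells had at most 247 CPM. *Spp1* was lower at 7 dpf in both, with ratios of 0.216, interval 0.2097 to 0.223 and 0.387, interval 0.362 to 0.414. Of 8 osteoclast genes compared in control, 4 were past 2-fold lower (*Ctsk*, *Mmp9*, *Ocstamp* and *Dcstamp*), with a median of -1.01. In control_4d 1 cell held most *Mmp9* and *Ctsk* UMIs. In RA, of 7 compared, 2 were higher (*Ctsk* and *Dcstamp*) and 1 lower (*Ocstamp*), with a median of -0.09. *Chil3* went from 116 to 15.8 CPM in RA, and was at 14.8 and 12.2 CPM in control. Of the class II presentation genes other than *H2-Ab1*, 0 of 11 compared in RA and 1 of 12 in control (*H2-DMb2*, lower) were past 2-fold, and 0 in control without the cells rich in mesenchymal UMIs. All 8 mesenchymal genes were past 2-fold higher at 7 dpf in both conditions with all cells. The median cell had 7 and 10 UMIs of these genes at 7 dpf, against 4 and 2 at 4 dpf. The haemoglobin genes were past 2-fold higher too, 4 of 4 compared in both, and mesenchymal cells had 355, 286, 3.26 and 243 CPM of *Hbb-bs*.

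The 23 class II-high macrophages with a *Retnla* UMI differed from the rest in more than *Retnla*. There were 3 in control_4d, 13 in control_7d and 7 in RA_7d, of which 1, 7 and 6 had at least 10 *Retnla* UMIs. A *Retnla* UMI was also found in 15 of 2811 and 15 of 3797 mesenchymal cells at 7 dpf, none with 10. Levels of *H2-Aa* and *C1qb* in the cells with *Retnla* were higher than in the others in some libraries and lower in some. In control_4d *H2-Aa* was at 7175 against 4305 CPM and *C1qb* at 5674 against 2837 CPM. At 7 dpf *H2-Aa* was at 3772 CPM (3532 to 4024) in control_7d and 5687 (5246 to 6156) in RA_7d, against 4633 and 4305 CPM in those without, and *C1qb* at 2613 and 2217 against 3264 and 2704 CPM. *Ear2* was at 396, 152 and 826 CPM in control_4d, control_7d and RA_7d, against 15.8, 4.57 and 26.9 CPM, and was carried by 2 of 3, 4 of 13 and 6 of 7 of these cells. *Fn1* was at 2559.7 and 3339.9 CPM at 7 dpf against 699 and 1117, while in control_4d it was at 659.8 (471 to 898) against 592 CPM, within its interval. In control_4d, control_7d and RA_7d *Mgl2* was at 742, 90.4 and 362 against 46.97, 12.3 and 23.03 CPM, and *Ccr2* at 1188, 464 and 724 against 402, 212 and 254 CPM.

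Lower in the cells with *Retnla* were *Cd72*, *Cx3cr1* and *Il1b*. *Cd72* was at 45.2 CPM (22.6 to 80.9) in control_7d and 18.6 (2.25 to 67.03) in RA_7d, against 188 (177 to 199.6) and 169 (157 to 182) CPM in the others. *Cx3cr1* was at 41.1 and 27.8 CPM against 176 and 152, and *Il1b* at 82.2 and 18.6 CPM against 219 and 171. A *Cd72* UMI was found in 2 of 3, 7 of 13 and 2 of 7 cells with *Retnla* in control_4d, control_7d and RA_7d, against 131 of 208, 301 of 488 and 182 of 310 others, so that the 2 markers also occurred in the same cells. *Chil3*, which is often measured with *Retnla* as a gene of interleukin-4 exposure, had 0 UMIs in the 23 cells, which allows up to 15.2 CPM in control_7d and 34.2 CPM in RA_7d (Poisson), above its level in the others (12.7 and 16.2 CPM), so a difference was not detectable at this depth. Other cells with a *Csf1r* UMI also carried *Retnla*, namely 18 of 3060, 37 of 2608, 7 of 2073 and 23 of 1774. In the Folr2 Cbr2 macrophages it had a UMI in 14 of 775, 10 of 394, 3 of 426 and 17 of 484 cells. These shares were 1.81%, 2.54%, 0.704% and 3.51%, against 1.42%, 2.59%, 0% and 2.21% of the class II-high macrophages, so *Retnla* was not particular to the latter.

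**Figure D5:**
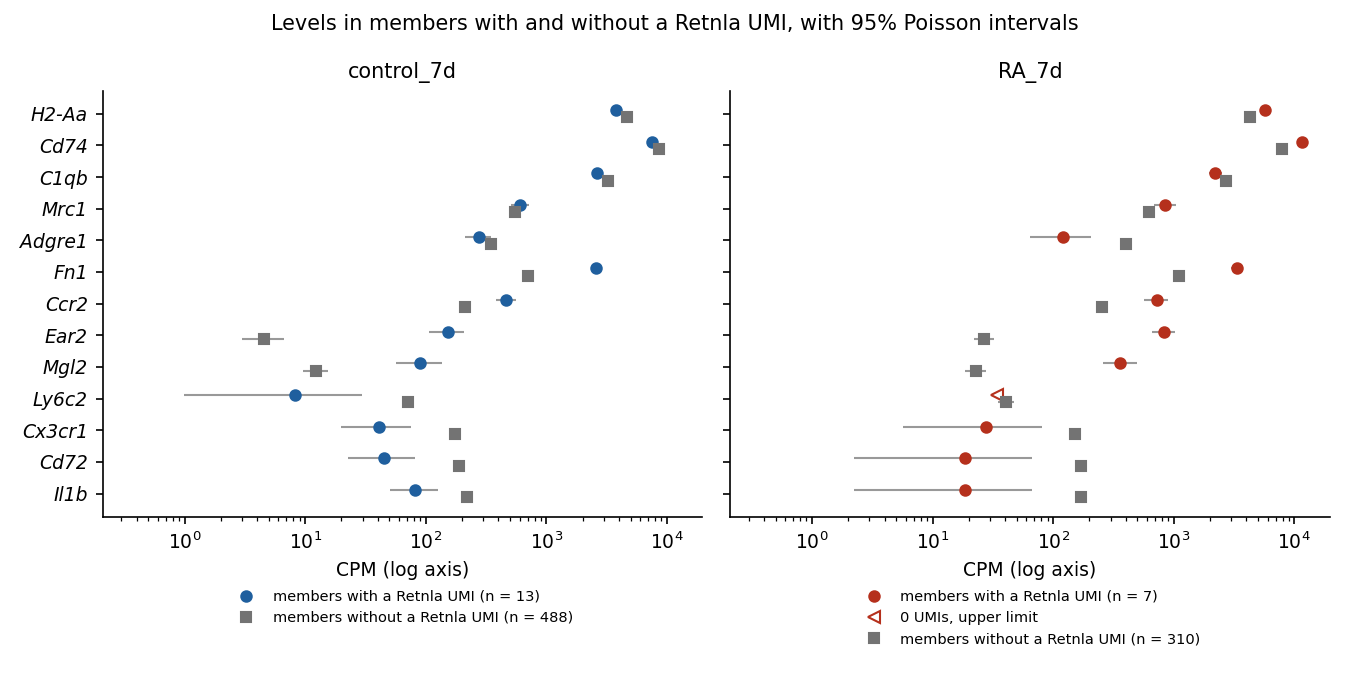
CPM (log axis) of 13 genes in class II-high macrophages with a Retnla UMI (coloured circles) and without one (grey squares) in control_7d (left) and RA_7d (right), with lines for 95% Poisson intervals and an open triangle at the upper limit where there were 0 UMIs. Ear2, Mgl2, Fn1 and Ccr2 lie to the right and Cd72, Cx3cr1 and Il1b to the left in the cells with Retnla, in both libraries.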

How the data were processed

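Callus tissue was scraped along the periosteal surface, digested with Collagenase P and captured with 10x Chromium 3′ v3.1 chemistry. The deposited matrices give, for each barcode, the whole-number UMI count of each gene, not normalized. The submitters' processing notes name Cell Ranger 7.0.1 and mm10 as what the authors used. All 4 libraries had 32285 genes, of which 32158 matched GENCODE by identifier, and 7630, 10206, 5896 and 10306 barcodes in control_4d, control_7d, RA_4d and RA_7d. The cell filter follows the study's methods.

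Member UMIs were summed per library and scaled to 1000000. The ratio of sums is given with an exact conditional interval, levels with Poisson intervals and shares with Clopper-Pearson intervals, all at 95% and for counting error only, since each group had 1 library. The log2 ratio used a pseudocount of 1 CPM and genes with at least 50 UMIs over both groups. Past 2-fold is a limit of size, not a test. Doublets were called with Scrublet (scanpy 1.11.5) per library and kept, except in the alternative without them. Where shares of cells with a UMI are called thinned, each cell was drawn down to 4000 UMIs. The code (Python 3.11.15, numpy 2.4.6, scipy 1.17.1, pandas 2.3.3, matplotlib 3.10.9) was tested on simulated data.

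The members and the 37 gene lists were chosen with earlier results of these data known, so no count supports them independently. Named were the 12 largest ratios in each direction against the class II-low counterparts, the 8 largest between RA and control at each time and with the same sign at both, the 6 largest between times, the markers, all class II presentation genes and up to 5 genes of each list. Ratios were named at 50 CPM or more in the higher group and without ribosomal protein, mitochondrial and rule genes. Further list genes were named after their values were seen. Symbols for 3 list genes (*Mx1*, *Clec7a* and *Aldoa*) gave no single row and were not analysed here. Alternatives covered the denominator of shares, the cell filter, the *H2-Ab1* limit, thinning, doublets, the pseudocount, the UMI minimum, TMM scaling and the mean over cells. Counting against cells that passed all limits but that on *H2-Ab1*, and leaving out cells over 50 mesenchymal UMIs, were chosen after seeing the data. Some genes, among them one with a limit in the choice of cells, are not reported here.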

Additional observations from a re-analysis of the deposited data

Results flagged for a closer look

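*Ccl8* and *Ccnd2* were lower in RA than in control at 4 dpf and higher at 7 dpf, each by more than 2-fold, and the difference between the times was not tested. The log2 ratio of *Ccl8* was -2.70 at 4 dpf and 1.17 at 7 dpf. In control_4d 1 cell held 289 of its 520 UMIs, and without the cells over 50 mesenchymal UMIs the ratios were -2.68 and 1.25. The log2 ratio of *Ccnd2*, a cyclin, was -2.14 at 4 dpf and 1.28 at 7 dpf, and -2.34 and 0.47 without those cells, with 65.6 and 14.1 CPM at 4 dpf and 18.5 and 46.3 CPM at 7 dpf. In control_4d 1 cell held 55 of 212 *Ccnd2* UMIs.

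Barcodes outside the cell filter also passed the gene limits of the class II-high macrophages, 15 of 2160 in control_4d and 28 of 2530 in control_7d, and 7 of 1786 in RA_4d and 33 of 2083 in RA_7d. Of these 2, 9, 2 and 13 lay above the limits on UMIs or genes, 13, 18, 5 and 20 below them, and 2, 3, 2 and 3 were over the mitochondrial limit.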

How the results depend on the processing

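No paired analysis was possible because each group had 1 library, and for the same reason no replicate could be left out. For the share ratios, the gene counts and the class II medians, 62 alternative values kept their direction and size, 23 moved and 1 reversed. Against cells with a *Csf1r* UMI the share in RA_7d was 0.941 times that in control_7d, and the ratios of 7 to 4 dpf were 2.50 in control and 2.98 in RA. Against cells that passed all limits but that on *H2-Ab1* these were 1.23 (reversed), 1.23 and 2.26. Thinned to 10000 UMIs, the ratio of 7 to 4 dpf was 1.43 in control and 1.19 in RA (0.929 to 1.53), and that of RA to control at 4 dpf 0.773 (0.594 to 1.002), where the last intervals include 1. The share of RA_4d over that of control_4d stayed between 0.643 and 0.788 under all 8 alternatives.

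With a pseudocount of 10 CPM the counts of genes past 2-fold higher and lower in RA were 18 and 43 at 4 dpf and 182 and 14 at 7 dpf. With genes of at least 10 UMIs they were 276 and 418 at 4 dpf and 788 and 133 at 7 dpf, as more genes with few UMIs were compared. Higher in RA at 7 dpf were 73 genes without called doublets and 97 without the cells over 50 mesenchymal UMIs, where the class II median at 7 dpf was 0.094 and 0.055, against -0.083 with all cells. Of genes lower against the counterparts there were 3 (pseudocount of 10), 20 (at least 10 UMIs), 4 (TMM), 27 (mean over cells) and 49 (without doublets).

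At 4 dpf single genes turned in direction with an *H2-Ab1* limit of 20 UMIs, without doublets and without mesenchymal-rich cells, in this order, *Bgn* with -0.13, -0.19 and -0.34, *Postn* with -1.45, -1.40 and -1.36, *Col1a1* with -1.02, -0.96 and -0.95 and *Col1a2* with -0.73, -0.68 and -0.66, and *Sparc* with -0.28 for the last. At 7 dpf, without doublets and without mesenchymal-rich cells, these were -0.068 and -0.48 for *Bgn*, -0.48 and -0.065 for *Postn* and -0.15 and -0.064 for *Col1a1*. The mesenchymal list median was -0.0094 without doublets, and the muscle list median -0.062 (at least 10 UMIs) and -1.19 (limit of 20). A further 32 values of single genes and lists changed sign, all of them less than 2-fold in the main processing. Among them, in the same order of settings at 4 dpf, were the mesenchymal list median (0.95 with all cells) with -1.40, -1.26 and -1.21 and *Dcn* (0.08) with the same values, and at 7 dpf *Chil3* (0.35) with -0.37 by the mean over cells. RA_4d had the fewest cells, 111.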
